A study of Mus musculus with 4 samples.

Results

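The lysosomal cathepsins examined here are 10 protease genes, *Ctss*, *Ctsk*, *Ctsl*, *Ctsb*, *Ctsz*, *Ctsc*, *Ctsh*, *Ctsf*, *Ctsd* and *Ctsa*. They were chosen by name and read through every probe set that the platform annotation assigns to 1 of these genes and to no other, which gave 22 of the 45101 probe sets on the array. All 10 were measured, among 18194 genes with such a probe set. The aim was to set *Ctss*, a cathepsin of myeloid cells, against cathepsins that most cell types express.

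The study hybridised 4 Affymetrix mouse arrays, 1 for each genotype, with RNA from cultured mammary fibroblasts of 16-week-old FVB/N females at the second passage. The *ErbB2* fibroblasts came from mice whose mammary epithelium carries the *ErbB2* oncogene, with the genotypes *ErbB2;Fsp-cre;Ets2db/loxP* for the *ErbB2* *Ets2* null array and *ErbB2;Ets2db/loxP* for the *ErbB2* *Ets2* present array. The normal fibroblasts carried no oncogene, with the genotypes *FspCre;Ets2db/loxP* for the normal *Ets2* null array and *Ets2db/loxP* for the normal *Ets2* present array. All 4 genotypes have 1 conventional knockout allele of the transcription factor *Ets2* (*db*) and 1 conditional allele (*loxP*), so the arrays called *Ets2* present carry a single working copy. The conditional allele is deleted by Cre under the promoter of *Fsp*, a gene used to mark fibroblasts, and the *Ets2* null arrays are therefore also the arrays with Cre. No source used here says how many animals or cultures an array stands for.

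Cathepsins are proteases of the lysosome, the acid compartment in which cells break down proteins. They are made as inactive precursors, carried to the lysosome by receptors for mannose phosphate, and activated there by cleavage. Most belong to the papain family of cysteine proteases, whereas cathepsin D is an aspartic protease and cathepsin A a serine carboxypeptidase. Tumor and stromal cells can also release cathepsins, which then act on collagen and other matrix proteins.

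The values are log2 expression made by the authors with RMA, so a difference of 1 is 2-fold. Each gene is represented by its brightest probe set on average over the 4 arrays, and log2 6 is used as a limit below which a value was not shown to be above background. With 1 array per genotype there was no replicate spread, no test was run and no p-value is given. Every difference below describes these arrays, and *Ctss* was among the genes that the study picked on the *ErbB2* pair. The array medians lay between 5.51 and 5.54 and Pearson's r between arrays, over all probe sets, between 0.988 and 0.993. *Ets2* itself read 8.31 in *ErbB2* *Ets2* null, 8.34 in *ErbB2* *Ets2* present, 8.35 in normal *Ets2* null and 8.14 in normal *Ets2* present fibroblasts on its brightest probe set. No source used here says whether that probe set lies within the deleted part, and so it cannot serve as a check of the labels. Fibroblast genes were bright on all arrays, with the collagen gene *Col1a2* between 14.29 and 14.61, the matrix protein gene *Sparc* between 14.37 and 14.52 and the intermediate filament gene *Vim* between 13.97 and 14.06. Myeloid genes were measured beside them, with the lysozyme gene *Lyz2* between 11.99 and 13.19.

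The sequences upstream of these genes differ in the short elements they hold, and 4 stretches are shown because they carry the elements looked for. They come from the RefSeq promoter table of build GRCm38.p6, which covers 250 bases before to 50 bases after a gene's start and held 8 of the 10 genes in 9 windows. No window was listed for *Ctsb* and *Ctsh*. Capitals mark GAGGAA on either strand, the core of sites for PU.1, an ETS factor of myeloid cells, in *Ctss* and *Ctsk*, and CACGTG, the centre of the CLEAR element of lysosomal genes, in *Ctsd* and *Ctsa*.
*Ctss* chr3:95526616-95526795 (+ strand): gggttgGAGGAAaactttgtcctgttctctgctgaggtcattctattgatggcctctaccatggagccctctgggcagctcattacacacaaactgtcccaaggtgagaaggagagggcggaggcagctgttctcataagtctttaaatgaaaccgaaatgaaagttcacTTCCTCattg
*Ctsk* chr3:95498970-95499209 (+ strand): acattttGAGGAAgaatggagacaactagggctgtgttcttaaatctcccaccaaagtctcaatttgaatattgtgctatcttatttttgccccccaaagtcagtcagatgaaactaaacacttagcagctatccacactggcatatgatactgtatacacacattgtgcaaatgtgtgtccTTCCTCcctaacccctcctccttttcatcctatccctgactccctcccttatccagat
*Ctsd* chr7:142387907-142388077 (- strand): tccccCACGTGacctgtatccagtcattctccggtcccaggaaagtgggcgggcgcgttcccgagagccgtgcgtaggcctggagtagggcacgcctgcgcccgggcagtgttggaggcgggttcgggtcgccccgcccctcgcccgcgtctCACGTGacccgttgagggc
*Ctsa* chr2:164833713-164833792 (+ strand): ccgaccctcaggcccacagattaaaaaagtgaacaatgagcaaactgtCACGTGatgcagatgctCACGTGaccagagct
GAGGAA stood in the windows of 3 of the 8 genes, *Ctss*, *Ctsk* and *Ctsc*, and in those of 31.3% of all 27025 genes in the table. CACGTG stood in those of 4, *Ctsd*, *Ctsl*, *Ctsf* and *Ctsa*, and in those of 8.09% of all genes. CGGAAG, an ETS type core, was in that of *Ctsk*, beyond the stretch shown, and in those of 18.8% of all genes. A pair of GAAA runs set 2 bases apart, a core read by interferon regulatory factors and looked for after the *Ctss* sequence had been seen, was in *Ctss* alone of the 8 and in 3.99% of all genes. No window of the 8 genes held both GAGGAA and CACGTG. All searches took in both strands, none of these elements contains another, and a match is a run of letters, not a measured site.

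Loss of *Ets2* went with lower *Ctss* in *ErbB2* fibroblasts, and with smaller differences in most other cathepsins. The log2 value of *Ctss*, which trims the invariant chain of MHC class II and stays active at neutral pH, was 8.99 in *ErbB2* *Ets2* null and 11.49 in *ErbB2* *Ets2* present fibroblasts. It was 9.94 in normal *Ets2* null and 10.22 in normal *Ets2* present fibroblasts. The *ErbB2* *Ets2* null array was thus the lowest of the 4 and the *ErbB2* *Ets2* present array the highest, with the normal arrays close together between them. The difference was -2.50 in *ErbB2* fibroblasts, 5.65-fold lower without *Ets2*, and -0.28 in normal fibroblasts. Only 28 of the 18194 genes differed by more in that direction in *ErbB2* fibroblasts, against 1991 in normal fibroblasts. *Ctss* was read by a single probe set.

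*Ctsh*, an aminopeptidase of the papain family, was the member nearest to *Ctss* in the size of its *ErbB2* difference. Its log2 value was 8.70 in *ErbB2* *Ets2* null and 10.50 in *ErbB2* *Ets2* present fibroblasts, and 9.49 in normal *Ets2* null and 9.07 in normal *Ets2* present fibroblasts. The difference was -1.80 in *ErbB2* fibroblasts, or 3.48-fold lower without *Ets2*, and 0.42 in normal fibroblasts, so *Ctsh* was the only member with a difference above 0 there. Its other probe set gave -1.41 and 0.75 for the same pairs. *Ctsd*, the aspartic cathepsin, was the third, at 12.12 in *ErbB2* *Ets2* null and 13.13 in *ErbB2* *Ets2* present fibroblasts, a 2.02-fold difference. It lay just past 2-fold, and quantile normalization or a loess correction brought its difference to -0.90 or -0.95. *Ctsd* read 12.22 in normal *Ets2* null and 12.52 in normal *Ets2* present fibroblasts.

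These 3 of the 10 cathepsins were more than 2-fold lower without *Ets2* in *ErbB2* fibroblasts and none was more than 2-fold higher, where 1.74% of all genes were lower and 0.341% were higher past the same limit. Among genes at log2 6 or more on the brighter array of the pair, to which all 10 belong, 2.75% were lower. *Ctss* alone passed 4-fold, as 0.324% of all genes did in that direction. The median of the 10 differences was -0.70, against 0.04 over all genes, and -0.64 without *Ctss*. In normal fibroblasts none of the 10 passed 2-fold in either direction, where 0.357% of all genes were lower and 0.621% higher. Differences below 0 were found for 9 of the 10 members in *ErbB2* fibroblasts, as for 44.2% of all genes, and for 9 of 10 in normal fibroblasts, as for 50.5%. The median in normal fibroblasts was -0.27, against -0.00 over all genes. The count in *ErbB2* fibroblasts includes *Ctss*, which the study had picked for its difference in that pair.

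**Figure D1:**
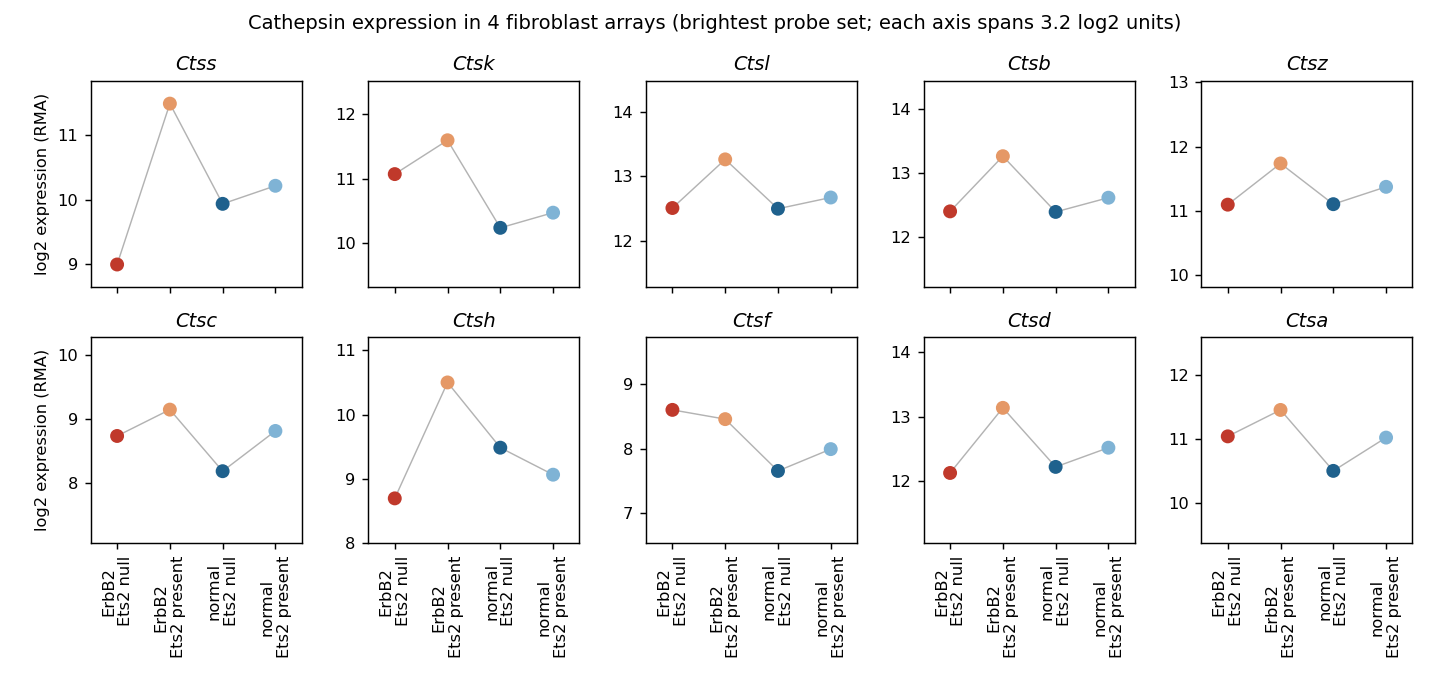
Log2 expression of each cathepsin (y axis, brightest probe set, every axis spanning the same 3.2 log2 units) in the 4 arrays (x axis, 1 point per array). *Ctss* runs between 8.99 and 11.49, and 9 of the 10 genes are highest in the *ErbB2* *Ets2* present array.

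*Ctsb* was the member whose probe sets differed most from each other. Cathepsin B cleaves both within proteins and from their ends and is expressed by most cells. Its brightest probe set read 12.41 in *ErbB2* *Ets2* null and 13.26 in *ErbB2* *Ets2* present fibroblasts, a difference of -0.86 that fell just short of 2-fold. The second of its 5 probe sets in brightness, at 12.40 in *ErbB2* *Ets2* null and 13.32 in *ErbB2* *Ets2* present fibroblasts, gave nearly the same. Dimmer probe sets showed larger differences. The third read 8.15 in *ErbB2* *Ets2* null and 10.09 in *ErbB2* *Ets2* present fibroblasts, or 3.86-fold lower without *Ets2*. The fourth, at 7.63 in *ErbB2* *Ets2* null and 9.10 in *ErbB2* *Ets2* present fibroblasts, was 2.77-fold lower. The dimmest was at 6.17 in *ErbB2* *Ets2* null and 6.26 in *ErbB2* *Ets2* present fibroblasts and hardly differed. In normal fibroblasts the 5 probe sets of *Ctsb* differed by -0.27 to -0.00. No source used here says which parts of the transcript they read. By the mean of its probe sets or by the one that differed most, *Ctsb* joined *Ctss*, *Ctsh* and *Ctsd*, so the count was 4.

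*Ctsl*, which was first described as the major protein secreted by transformed mouse fibroblasts, read 12.50 in *ErbB2* *Ets2* null and 13.26 in *ErbB2* *Ets2* present fibroblasts. Its values in normal fibroblasts, 12.49 without and 12.67 with *Ets2*, were closer together. *Ctsz*, a carboxypeptidase, read 11.10 in *ErbB2* *Ets2* null and 11.74 in *ErbB2* *Ets2* present fibroblasts, and 11.11 in normal *Ets2* null and 11.37 in normal *Ets2* present fibroblasts. Its 3 probe sets gave -0.64 to -0.39 in *ErbB2* fibroblasts and -0.27 to -0.13 in normal fibroblasts. For both genes the *ErbB2* *Ets2* present array stood above the other 3. Those 3 lay close together for *Ctsl*, and for *Ctsz* they spanned 11.10 to 11.37.

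*Ctsk*, the main collagen-degrading enzyme of osteoclasts and also a protease of fibroblasts, lay otherwise. Its log2 value was 11.07 in *ErbB2* *Ets2* null and 11.60 in *ErbB2* *Ets2* present fibroblasts, against 10.24 in normal *Ets2* null and 10.47 in normal *Ets2* present fibroblasts. Both *ErbB2* arrays were above both normal arrays. In the GRCm38.p6 annotation *Ctsk* and *Ctss* are neighbours on chromosome 3 with no other protein-coding gene between them. Their differences without *Ets2* in *ErbB2* fibroblasts were -0.53 for *Ctsk* and -2.50 for *Ctss*.

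The 3 remaining genes stayed within 2-fold in every comparison. *Ctsc*, which activates the serine proteases of granules, read 8.74 in *ErbB2* *Ets2* null and 9.15 in *ErbB2* *Ets2* present fibroblasts, and 8.19 in normal *Ets2* null and 8.81 in normal *Ets2* present fibroblasts. It was the member with the lowest difference in normal fibroblasts, at -0.62, where 1.59% of all genes were lower still. *Ctsa* followed at -0.52, where 2.64% were. *Ctsa*, the protective protein of lysosomal galactosidase and neuraminidase, read 11.04 in *ErbB2* *Ets2* null and 11.45 in *ErbB2* *Ets2* present fibroblasts, and 10.51 in normal *Ets2* null and 11.02 in normal *Ets2* present fibroblasts. Its dimmer probe set, at 6.31 to 6.64, gave a difference of 0.23 in *ErbB2* fibroblasts, opposite in sign to -0.41 on the brightest. *Ctsf*, a papain-type cathepsin, read 8.60 in *ErbB2* *Ets2* null and 8.46 in *ErbB2* *Ets2* present fibroblasts, and 7.65 in normal *Ets2* null and 7.99 in normal *Ets2* present fibroblasts. It was the only member that was not lower without *Ets2* in *ErbB2* fibroblasts. Below log2 6 on every array were 1 further probe set of *Ctsl*, 2 of *Ctsc* and 1 of *Ctsf*, which were left out of these statements.

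**Figure D2:**
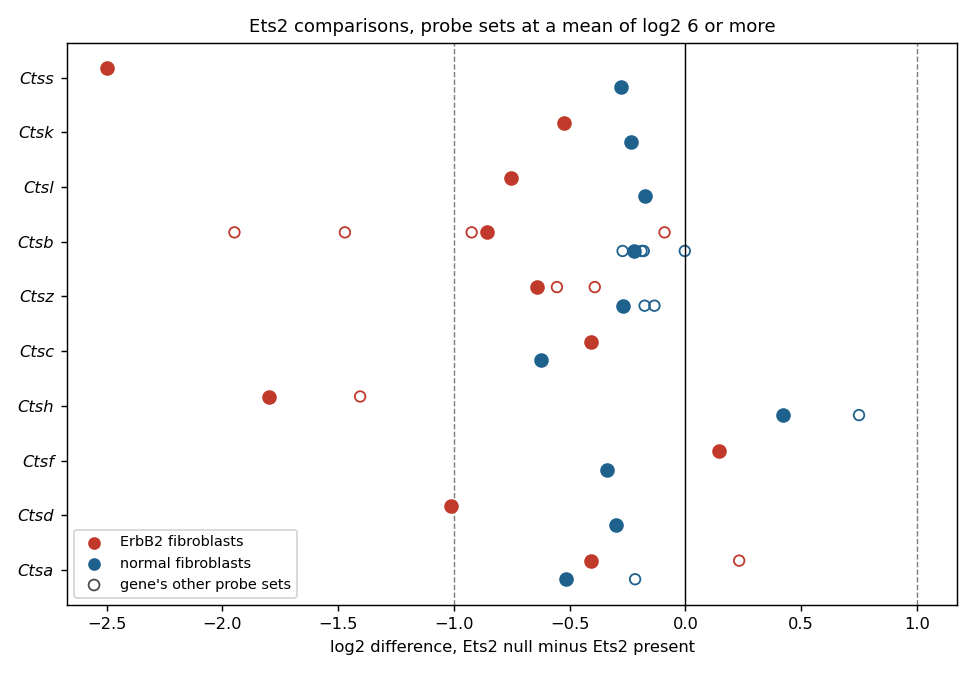
Log2 difference, *Ets2* null minus *Ets2* present (x axis), for each cathepsin (y axis), in *ErbB2* (red) and normal (blue) fibroblasts, with filled points for the brightest probe set, open points for the gene's others at a mean of log2 6 or more, and dashed lines at 2-fold. *Ctss* lies at -2.50 and *Ctsh* at -1.80 in *ErbB2* fibroblasts, *Ctsb* spreads between -1.95 and -0.09, and all points of normal fibroblasts lie within 2-fold.

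The comparison of *ErbB2* with normal fibroblasts used the same 4 arrays, so its values are given side by side with those above and no relation between them was read. With *Ets2* present, *Ctsh*, *Ctss* and *Ctsk* were more than 2-fold higher in *ErbB2* fibroblasts, by 2.70-fold, 2.42-fold and 2.18-fold. These were 3 of the 10 members, where 0.830% of all genes were higher by that size, and none was lower, where 0.170% of all genes were. The other 7 members had differences of 0.33 to 0.64, so all 10 were above 0 on their brightest probe sets, where 53.5% of all genes were below 0. The third probe set of *Ctsb* in brightness was 2.47-fold higher. The dimmer probe set of *Ctsa* gave -0.13. Without *Ets2*, no member passed 2-fold, where 0.544% of all genes were higher and 1.51% lower. *Ctsf* was highest there, at 0.95, followed by *Ctsk* at 0.83, and *Ctss* lowest, at -0.94, followed by *Ctsh* at -0.79.

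**Figure D3:**
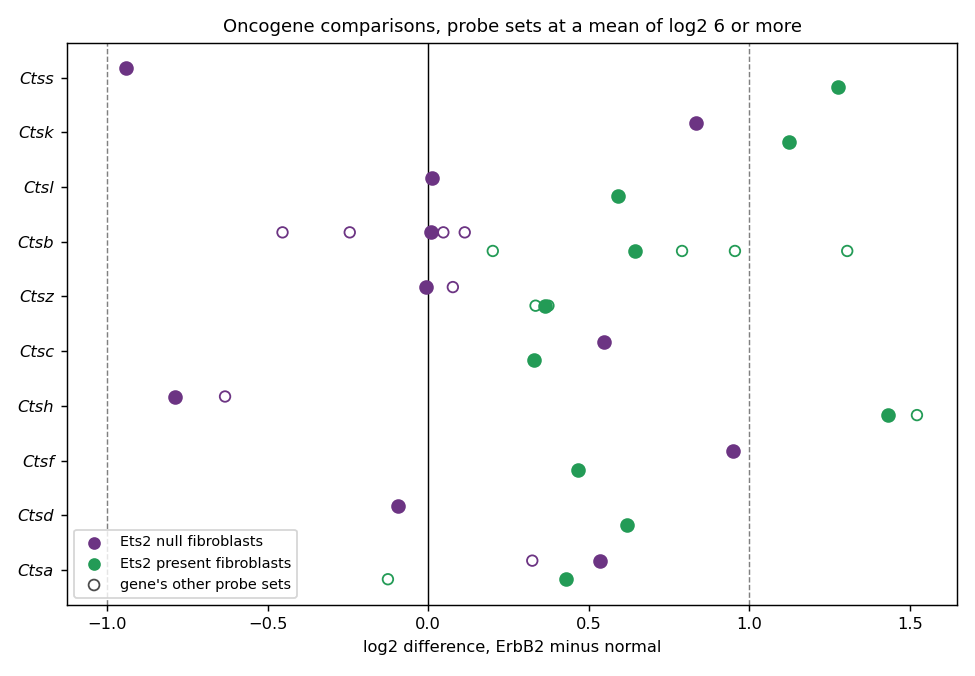
Log2 difference between *ErbB2* and normal fibroblasts (x axis) for each cathepsin (y axis), without *Ets2* (purple) and with *Ets2* (green), drawn with filled, open and dashed marks for the brightest probe set, the gene's other probe sets and 2-fold. With *Ets2* present every filled point is above 0, and without it *Ctss* and *Ctsh* lie at -0.94 and -0.79 while *Ctsf* and *Ctsk* lie at 0.95 and 0.83.

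Of the 10 genes, 9 had their highest value in the *ErbB2* *Ets2* present array, where 23.9% of all genes and 30.4% of genes at log2 6 or more had theirs. The lowest value was in the *ErbB2* *Ets2* null array for 4 genes, as for 23.7% of all genes, and in the normal *Ets2* null array for 6, as for 24.9%. The profiles fell into 3 shapes, which were drawn after the values were seen and are a description. *Ctss* and *Ctsh* were lowest in the *ErbB2* *Ets2* null array, which differed from the normal *Ets2* null array by -0.94 and -0.79. *Ctsz* and *Ctsd* were also lowest there, but differed from the normal *Ets2* null array by only -0.01 and -0.09. *Ctsl*, *Ctsb*, *Ctsz* and *Ctsd* were high in the *ErbB2* *Ets2* present array, and their *Ets2* null arrays differed by -0.09 to 0.01 between *ErbB2* and normal fibroblasts. *Ctsk*, *Ctsc*, *Ctsf* and *Ctsa* were higher in *ErbB2* fibroblasts without *Ets2* too, by 0.54 to 0.95. The closest pair was *Ctsl* and *Ctsb*, at a distance of 0.08 on the log2 scale between profiles centred on their means.

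**Figure D4:**
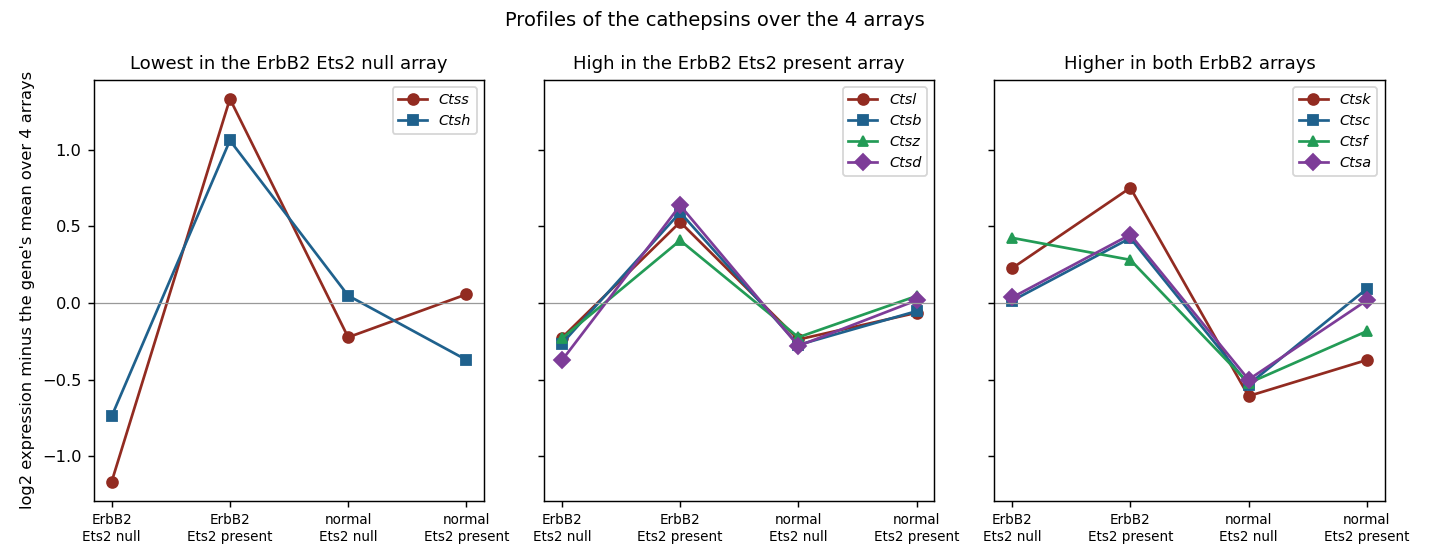
Log2 expression minus the gene's mean over the 4 arrays (y axis) in each array (x axis), with 1 line per cathepsin and a panel for each of 3 shapes named after the values were seen. *Ctss* and *Ctsh* are lowest in the *ErbB2* *Ets2* null array, as are *Ctsz* and *Ctsd* of the middle panel by smaller margins. The genes of the right panel stay above the normal *Ets2* null array there by 0.54 to 0.95.

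Genes nearest to *Ctss* over the 4 arrays were sought among 10353 other genes with a mean of log2 6 or more. The nearest was *Tyrobp*, a signaling adaptor of myeloid and NK cells, at a distance of 0.23, with log2 values of 8.04 in *ErbB2* *Ets2* null, 10.27 in *ErbB2* *Ets2* present, 8.70 in normal *Ets2* null and 9.01 in normal *Ets2* present fibroblasts. *Atp6v0d2*, a proton pump subunit of osteoclasts and macrophages, *Pla2g7*, a phospholipase of plasma lipoproteins, *Myog*, a transcription factor of skeletal muscle, and *Clec4d*, a lectin receptor of myeloid cells, followed at 0.26 to 0.36. The likeness rests on 4 arrays, and *Atp6v0d2*, *Pla2g7* and *Myog* read below log2 6 in *ErbB2* *Ets2* null fibroblasts.

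Markers of myeloid cells moved with *Ctss*. Of 39 measured myeloid markers, a list that does not hold *Ctss*, 23 were more than 2-fold lower in *ErbB2* *Ets2* null fibroblasts, as were 1.74% of all genes. None was more than 2-fold higher, as were 0.341% of all genes, and the median of the list was -1.22. Of the 3 brightest, the lysozyme genes *Lyz1* and *Lyz2* differed by -0.88 and -1.20 in *ErbB2* fibroblasts, and *Csf1r*, the receptor for macrophage colony-stimulating factor, by -0.98. In normal fibroblasts *Lyz1* and *Lyz2* differed by -0.45 each and *Csf1r* by 0.59, where *Ctss* differed by -0.28. Not all markers followed *Ctss*. The complement genes *C1qa* and *C1qc* were higher in *ErbB2* than in normal fibroblasts without *Ets2*, by 2.39 and 1.06, where *Ctss* differed by -0.94. The summed linear signal of the list was 16960 in *ErbB2* *Ets2* null, 37560 in *ErbB2* *Ets2* present, 18130 in normal *Ets2* null and 22720 in normal *Ets2* present fibroblasts, in the same order as *Ctss*. That sum was 2.21-fold lower without *Ets2* in *ErbB2* fibroblasts, and that of the 9 cathepsins other than *Ctss* 1.72-fold. *Lyz1* and *Lyz2*, at 13.47 and 13.19 in *ErbB2* *Ets2* present fibroblasts, made up most of the myeloid sum. The median log2 value of the list, on which they weigh no more than other markers, was 7.16 in *ErbB2* *Ets2* null and 8.69 in *ErbB2* *Ets2* present fibroblasts. It was 7.36 in normal *Ets2* null and 7.69 in normal *Ets2* present fibroblasts, the same order again. Of the list, *Aif1*, *Cx3cr1* and *Irf8* were below log2 6 on all arrays. The part of myeloid cells in the cathepsin differences was not tested, and in such bulk RNA fewer cells of a type and less RNA per cell cannot be told apart. In normal fibroblasts the median of the myeloid list was -0.24, with 1 gene more than 2-fold lower, as were 0.357% of all genes.

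*Ctsh* differed in the direction of the epithelial markers within both pairs. Their median was -1.43 in *ErbB2* fibroblasts and 1.35 in normal fibroblasts. In the first pair 10 of 17 were more than 2-fold lower (1.74% of all genes), and in the second 9 of 17 more than 2-fold higher (0.621% of all genes). Their summed linear signal was 1038 in *ErbB2* *Ets2* null, 2966 in *ErbB2* *Ets2* present, 3615 in normal *Ets2* null and 1404 in normal *Ets2* present fibroblasts. Of the 3 brightest, *Epcam*, an adhesion protein, differed by -0.21 in *ErbB2* and -0.31 in normal fibroblasts, and *Krt19*, a keratin, by -1.02 and 0.38. These values of *Epcam* come from its brightest probe set alone. On another probe set, the study lists *Epcam* among the genes higher without *Ets2* in normal fibroblasts. *Krt8*, a keratin of luminal cells, was at 6.15 in *ErbB2* *Ets2* null, 9.25 in *ErbB2* *Ets2* present, 9.73 in normal *Ets2* null and 6.65 in normal *Ets2* present fibroblasts. Of the list, *Krt17*, *Cdh1*, *Cldn7*, *Elf5*, *Esrp1* and *Spint1* were below log2 6 on all arrays. The order over the 4 arrays was not that of *Ctsh*, since the epithelial sum was highest in normal *Ets2* null fibroblasts and *Ctsh* in *ErbB2* *Ets2* present fibroblasts. A value below 0 in *ErbB2* and above 0 in normal fibroblasts, as for *Ctsh*, was found for 20.4% of all genes. It was found for 13 of the 17 epithelial markers (76.5%) and for 9 of the 39 myeloid markers (23.1%), the latter near the share of all genes. The part of either cell type in the *Ctsh* values was not tested. The 23 fibroblast markers had medians of -0.09 in *ErbB2* and -0.40 in normal fibroblasts, with summed signals of 195400 in *ErbB2* *Ets2* null, 201800 in *ErbB2* *Ets2* present, 165800 in normal *Ets2* null and 195100 in normal *Ets2* present fibroblasts. The 13 endothelial markers had medians of -0.48 in *ErbB2* and -0.57 in normal fibroblasts, with *Flt1*, *Egfl7* and *Kdr*, the brightest, at -0.90, -0.39 and -0.50 in *ErbB2* fibroblasts.

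Other genes of the lysosome had medians closer to that of all genes. Of 31 other lysosomal hydrolases, none passed 2-fold in *ErbB2* fibroblasts, with a range of -0.85 to 0.32 and a median of -0.19, and 20 were highest in the *ErbB2* *Ets2* present array, where 23.9% of all genes and 30.4% of those at log2 6 or more were highest. *Gusb*, which degrades glucuronides, was at 9.05 in *ErbB2* *Ets2* null and 9.90 in *ErbB2* *Ets2* present fibroblasts. *Galns* and *Naglu*, enzymes of glycosaminoglycan breakdown, and *Psap*, the precursor of the saposins, each differed by -0.73. Of 29 genes of the lysosomal membrane, the proton pump, sorting and its regulators, none passed 2-fold either, beside the same shares of all genes. Their median was -0.02, and 10 were highest in the *ErbB2* *Ets2* present array. Among them *M6pr*, a receptor that carries cathepsin precursors, was at 10.93 in *ErbB2* *Ets2* null and 11.67 in *ErbB2* *Ets2* present fibroblasts. *Laptm4b*, a lysosomal membrane protein, was higher without *Ets2*, at 11.20 against 10.45 in *ErbB2* *Ets2* present fibroblasts. *Tfeb*, the factor that acts on CLEAR elements, differed by -0.55, and *Cln3*, a lysosomal membrane protein, by -0.40. In normal fibroblasts none of the 60 genes of both lists passed 2-fold, where 0.357% of all genes were lower and 0.621% higher. Their median was -0.07.

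Inhibitors of cathepsins and the enzymes that process them had a median near that of all genes. Of 14 measured genes of inhibition and processing, 1 was more than 2-fold higher without *Ets2* in *ErbB2* fibroblasts (0.341% of all genes). None was more than 2-fold lower (1.74% of all genes), and the median was 0.03. *Serpinb9*, an inhibitor of granzyme B, was at 8.94 in *ErbB2* *Ets2* null and 7.94 in *ErbB2* *Ets2* present fibroblasts, at the edge of the threshold with 2.00-fold. *Ctla2a*, a protein like the propeptide of cathepsin L that inhibits cysteine proteases, was at 9.48 in *ErbB2* *Ets2* null and 8.49 in *ErbB2* *Ets2* present fibroblasts, just short of it. *Cst3*, the secreted inhibitor cystatin C, was at 11.97 in *ErbB2* *Ets2* null and 12.36 in *ErbB2* *Ets2* present fibroblasts. *Lgmn*, the asparaginyl endopeptidase that processes several cathepsins, was at 10.59 in *ErbB2* *Ets2* null and 11.06 in *ErbB2* *Ets2* present fibroblasts.

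Genes that work with single cathepsins gave 2 further contrasts. Genes of MHC class II, whose invariant chain cathepsin S trims in antigen-presenting cells, were dim. None of 8 passed 2-fold in *ErbB2* fibroblasts, where 1.74% of all genes were lower and 0.341% higher. *H2-Aa*, *H2-Ab1*, *Ciita*, *H2-Oa* and *H2-Ob* were below log2 6 on all arrays. *Cd74*, the invariant chain, was at 6.30 in *ErbB2* *Ets2* null, 6.34 in *ErbB2* *Ets2* present, 5.78 in normal *Ets2* null and 6.55 in normal *Ets2* present fibroblasts. *H2-Eb1* and *H2-DMa* differed by 0.06 and 0.32 in *ErbB2* fibroblasts. Of 10 osteoclast genes, 3 were more than 2-fold lower without *Ets2* in *ErbB2* fibroblasts, as were 1.74% of all genes. None was more than 2-fold higher, as were 0.341% of all genes. The median of the list was 0.19, and only 4 of the 10 were below 0, where 44.2% of all genes were. The 3 past 2-fold were *Atp6v0d2*, by -2.32, *Acp5*, an acid phosphatase, by -1.63, and the gelatinase *Mmp9*, by -1.04. *Nfatc1*, a transcription factor of osteoclasts, differed by 0.50. *Mmp9* was below log2 6 on every array but that of *ErbB2* *Ets2* present fibroblasts, where it read 6.15. *Atp6v0d2* was below log2 6 in *ErbB2* *Ets2* null fibroblasts. The differences of *Mmp9* and *Atp6v0d2* thus include a value that was not shown to be above background. *Dcstamp*, *Ocstamp*, *Oscar*, *Calcr* and *Tnfrsf11a* were below log2 6 on all arrays.

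Of 12 other cathepsin genes, 9 were below log2 6 on all arrays, among them the neutrophil and mast cell protease gene *Ctsg* and 8 genes of the mouse placental group. The 3 others, *Ctso*, *Ctse* and *Ctsw*, differed by -0.32, -0.11 and -0.08 in *ErbB2* fibroblasts.

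**Figure D5:**
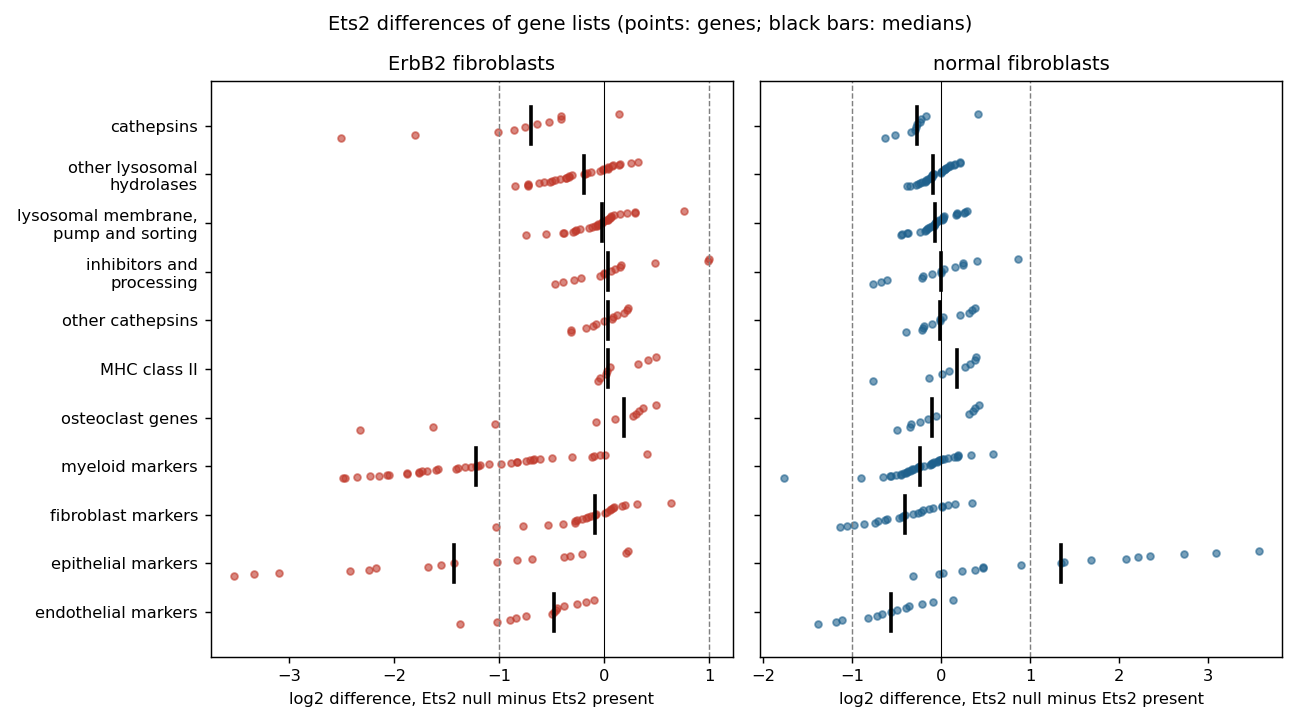
Log2 difference, *Ets2* null minus *Ets2* present (x axis), of each gene (points) in each list (y axis), in *ErbB2* (left, red) and normal (right, blue) fibroblasts, with black bars for list medians and dashed lines at 2-fold. In *ErbB2* fibroblasts the cathepsin median of -0.70 lies between -0.19 for other lysosomal hydrolases and -1.22 for myeloid markers.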

How the data were processed

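The data are 4 Affymetrix mouse genome arrays of mammary fibroblasts. The authors deposited log2 expression values that they had made with RMA, as both the methods and the processing notes state. No source used here gives the software version. RMA adjusts the background, brings all arrays to one distribution and combines a probe set's probes, so a shift common to most genes would be hidden. Of 45101 probe sets, 34958 had 1 symbol in the platform annotation, 932 had several and 9211 were unnamed here.

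Scripts in Python 3.11.15 (numpy 2.4.6, pandas 2.3.3) took the differences, and matplotlib 3.10.9 drew them. Counts used an absolute log2 difference over 1. Depth does not apply to arrays, whose number limits the precision. The 11 gene lists and the rule for named genes (all members, up to 4 genes of each list with the largest *ErbB2* differences, the 3 brightest markers of each cell type, and the 5 genes nearest to *Ctss*) were chosen with earlier results of these data known. *C1qa*, *C1qc*, markers named as dim and nearest genes of other members were named after their values were seen. Alternatives were other thresholds, probe set choices, median centring, quantile normalization, loess (statsmodels 0.14.6, span 0.4) and a floor at log2 6. A comparison of protein sequences was planned and not made here.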

Additional observations from a re-analysis of the deposited data

Results flagged for a closer look

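*Ctsh* differed in opposite directions in the 2 pairs of arrays, at -1.80 in *ErbB2* fibroblasts and 0.42 in normal fibroblasts (*Ets2* null minus *Ets2* present), and both values exceed the robust SD over all genes, 0.271 in *ErbB2* and 0.215 in normal fibroblasts. Its second probe set gave -1.41 and 0.75. With 1 array per genotype the difference between the pairs was not tested. Both signs were the same as for *Ctsh* in 13 of 17 epithelial markers, whose medians were -1.43 in *ErbB2* and 1.35 in normal fibroblasts. The same held for 9 of 39 myeloid markers (23.1%), near the 20.4% of all genes. The part of these cell types in the *Ctsh* values was not tested.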

How the results depend on the processing

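No paired analysis was possible because each genotype has 1 array, and no replicate could be left out. At 1.5-fold in place of 2-fold, 6 cathepsins were lower without *Ets2* in *ErbB2* fibroblasts (5.64% of all genes) and 1 in normal fibroblasts (1.87% of all genes), 6 were higher in *ErbB2* than in normal fibroblasts with *Ets2* (2.91% of all genes), and 2 were lower in *ErbB2* than in normal fibroblasts without *Ets2* (3.87% of all genes). At 4-fold the first count was 1 and the third 0. Under the other 7 settings the count of 3 in *ErbB2* fibroblasts became 2 with quantile normalization or loess and 4 with the mean of the probe sets or the one that differed most. The count of 3 higher in *ErbB2* than in normal fibroblasts with *Ets2* became 4 with the probe set that differed most. The *Ctss* difference ran between -2.54 and -2.39, the cathepsin median between -0.74 and -0.53 in *ErbB2* and between -0.29 and -0.22 in normal fibroblasts, and the *Ctss* difference in *ErbB2* minus that in normal fibroblasts, -2.22 as deposited, between -2.24 and -2.17. *Ctss* has 1 probe set and no value below log2 6. Only median centring, quantile normalization and loess could therefore change its values. Among single-gene differences other than that of *Ctss* in *ErbB2* fibroblasts, 16 of 273 alternative values moved by more than the robust SD over all genes, all 16 by another choice of probe set, and no difference over 2-fold changed sign.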

Other observations

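The 5 genes with the nearest profiles were also listed for the other cathepsins, over 4 arrays and among 10353 genes. *Mcm2*, *Klf10*, *Mis18a*, *Tcf19* and *Aurkb* were the nearest to *Ctsl*, at 0.03 to 0.08. *Mcm3*, *Mcm2*, *Flvcr1*, *Itgax* and *Fbxo5* were the nearest to *Ctsb*, at 0.07 to 0.11, and *Ccna2*, *Dek*, *Cdh13*, *Tcirg1* and *Adgre1* the nearest to *Ctsz*, at 0.03 to 0.05. *Stab1*, *Hells*, *Kcnab2*, *Arrb2* and *Nrros* were the nearest to *Ctsd*, at 0.10 to 0.14. These sets hold both genes of DNA replication and mitosis, such as *Mcm2*, *Mcm3*, *Aurkb* and *Ccna2*, and genes of macrophages, such as *Itgax*, *Adgre1* and *Stab1*. For *Ctsh* they were *Rbp4*, *Il7r*, *Pik3ap1*, *Fxyd3* and *Atf3*, at 0.06 to 0.25. For *Ctsk* they were *Itm2a*, *Lrrc15*, *Mmp2*, *Lgmn* and *Tgfbi*, at 0.11 to 0.29. *Il7r*, *Pik3ap1*, *Fxyd3*, *Flvcr1*, *Itgax*, *Kcnab2* and *Nrros* read below log2 6 in *ErbB2* *Ets2* null fibroblasts. Such distances are a description only.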
